A study of Rattus norvegicus with 12 samples.

Results

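The genes of the 3 nuclear RNA polymerases, the Mediator complex and the general transcription factors were followed in neonatal rat cardiac myocytes given an siRNA against p300, doxorubicin or both. Members were all genes whose symbol in the platform annotation begins with Polr1, Polr2 or Polr3, with Med or Taf and a digit, or with Gtf2 or Gtf3. This gave 85 of the 14506 genes on the table, each read from 1 probe set, the brightest of its gene over the 12 arrays. Of the 85, 25 are polymerase subunits, 23 are Mediator subunits, 15 are TBP-associated factors (10 of TFIID, 3 of SL1 and 2 of the TAF-like kind found in the coactivator SAGA), 12 belong to TFIIA, TFIIB, TFIIE, TFIIF or TFIIH, 2 to the TFII-I family and 5 to TFIIIC. The last 3, Polr1has, Polr2m and Taf15, carry a matching name but are not core subunits. Several large subunits, Polr2a, Polr3a, Med12, Taf1 and Taf4 among them, were not analysed here.

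RNA of 12 cultures was hybridised to Affymetrix whole-transcript arrays, 3 cultures per group and 1 culture of each group per experiment. The groups were cells with the p300 siRNA after 8 h of 1 µM doxorubicin (Dox, an anthracycline that poisons topoisomerase II), the same cells at 0 h, cells with a non-silencing (NS) siRNA after 8 h of Dox, and NS cells at 0 h. All 4 groups were primary cultures from Sprague Dawley neonates that the labels put at over 90% myocytes, were grown at first with bromodeoxyuridine to hold back fibroblasts, and spent 48 h without serum. The only untreated cultures were those of 0 h, so drug and time in culture cannot be told apart. The siRNA lowers and does not remove the p300 transcript: Ep300, which encodes p300, stood at 51.9% of NS at 0 h and at 52.9% at 8 h, below NS on all arrays at both times. The number of arrays limits the precision, and levels are relative, since RMA, which the submitters used, puts all arrays on 1 scale. All 10 myocyte markers lay above the median level of all genes. The summed intensity of 6 endothelial markers was lower after Dox (928 to 1015 at 8 h against 1254 to 1267 at 0 h in p300 siRNA cells, 1003 to 1155 against 1350 to 1471 in NS cells), none of them above the median level of all genes, and 2 of the 6 fell in each kind of cell (Kdr and Cdh5), or 3 and 4 with the experiment as a block. The 3 erythroid markers, all below that level, were summed at 473 to 490 against 368 to 406 in p300 siRNA cells and at 478 to 517 against 363 to 411 in NS cells, where Slc4a1 alone rose in both. Among the 6 smooth muscle and pericyte markers Cspg4 (-1.12 and -1.09) and Pdgfrb (-0.93 and -0.85) fell and Abcc9 (0.64 and 0.53) rose in p300 siRNA and NS cells, and the 6 were summed at 11754 to 16969 against 13341 to 18043 in p300 siRNA cells and at 12984 to 17091 against 13755 to 18246 in NS cells. The 10 fibroblast markers were summed at 36044 to 42971 against 36121 to 43933 in p300 siRNA cells and at 40880 to 45533 against 42111 to 46716 in NS cells, with Pdgfra (-0.88 and -0.79) lower and Thy1 (0.51 and 0.49) higher past the threshold. Of 8 macrophage and leukocyte markers Csf1r fell in both (-0.66 and -0.54) and Ptprc fell in p300 siRNA cells (-0.37, and -0.18 in NS cells, not past the threshold), and the median difference of the 8, p300 siRNA minus NS, was -0.34 at each time. With the experiment as a block 3 smooth muscle and pericyte markers rose and 2 fell in each kind of cell. Rgs5 (0.65 and 0.43) was among those rises. Fibroblast markers then gave 3 rises and 2 falls in p300 siRNA cells and 1 and 2 in NS cells. Macrophage and leukocyte markers gave 2 and 2, and 0 and 1, and myocyte markers 3 and 1, and 1 and 0. Of all genes 22.9% rose and 22.8% fell, and 21.6% and 21.9%. In these mixed cultures fewer cells of a type and less RNA per cell cannot be told apart, and the part of other cell types in the results was not tested.

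As background, RNA polymerase I makes the large ribosomal RNA, polymerase II makes messenger RNA, and polymerase III makes transfer RNA and 5S ribosomal RNA. The polymerases share some subunits and each has its own, among them the catalytic ones. At a polymerase II promoter, TFIID (TBP with its TAFs) binds DNA, TFIIA and TFIIB join it, TFIIF brings the polymerase, and TFIIE and TFIIH complete the complex and open the DNA, while Mediator passes signals from activators. SL1 has the role of TFIID at ribosomal RNA genes and TFIIIC recruits the factors that bring polymerase III to transfer RNA genes. p300 is an acetyltransferase and coactivator that works beside Mediator at promoters and enhancers.

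After 8 h of Dox, more of these genes were lower than higher in both kinds of cell under the submitters' scaling. In p300 siRNA cells 31 of the 85 fell, 14 rose and 40 did not pass the test (limma, Benjamini-Hochberg adjusted p under 0.05 over all genes). Over all 14506 genes 17.5% fell and 13.9% rose, against 36.5% and 16.5% of the members. In NS cells 30 fell, 11 rose and 44 did not pass, against 16.4% lower and 11.1% higher over all genes. The median log2 change of the members was -0.12 in p300 siRNA cells, where that of all genes was 0.04, and -0.10 in NS cells, where that of all genes was 0.04. With the experiment as a block the members gave 38 falls and 15 rises in p300 siRNA cells (22.8% and 22.9% of all genes), and 36 falls and 18 rises in NS cells (21.9% and 21.6% of all genes). Without experiment 2 (4 arrays) 25 members were called in p300 siRNA cells and 17 in NS cells, and without experiment 3 they were 27 and 17. The counts of all genes dropped too. In p300 siRNA cells 725 rose and 1544 fell without experiment 2, and 786 and 1573 without experiment 3, against 2017 and 2543 on all arrays. In NS cells 455 rose and 1327 fell, and 607 and 1330, against 1617 and 2375. Single arrays moved the rises by over 1.5 times: they came to 7 without p300 siRNA 8 h replicate 2, to 8 without its 8 h replicate 3 or 0 h replicate 1, and in NS cells to 5 without 8 h replicate 3 and to 6 without 8 h replicate 2 or 0 h replicate 1. Over all 14506 genes the rises without these arrays, in the order named, were 1404, 1360 and 1554, and in NS cells 1140, 1175 and 1046.

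The split between falls and rises depended on the scaling. When the arrays were instead centred on their median over the 14506 genes, a choice added after the values were seen, every change moved up by 0.10 on the log2 scale, and the members gave 25 falls and 16 rises in p300 siRNA cells and 21 falls and 22 rises in NS cells. Over all genes that scaling gave 1991 falls and 4344 rises in p300 siRNA cells, and 1832 and 3800 in NS cells. Relative to the median of all genes, which a shift of scale does not move, the members' median was -0.16 in p300 siRNA cells and -0.14 in NS cells. None of the 45 and of the 41 called members changed sign, and all 14 and all 11 rises kept their call, while 25 of the 31 and 21 of the 30 falls kept theirs. Gtf2i and Med24 lost it in both, Med15, Polr2c, Polr2i and Polr2m in p300 siRNA cells, and Gtf2h3, Med22, Med27, Polr2j, Polr3d, Polr3e and Taf5 in NS cells. The changes below are those of the submitters' scaling.

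The 3 arrays at 8 h lay wholly below the 3 at 0 h for 37 of the 85 members and wholly above for 16 in p300 siRNA cells, where all genes gave 21.6% in each direction. In NS cells the counts were 34 and 18, where all genes gave 21.2% and 20.1%. The members' median change in the 3 experiments was -0.10, -0.14 and -0.13 in p300 siRNA cells and -0.17, -0.08 and -0.18 in NS cells. A change of at least 2-fold was reached by Gtf2b, higher in p300 siRNA cells, and by Taf8, lower in NS cells, and by no other member.

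**Figure D1:**
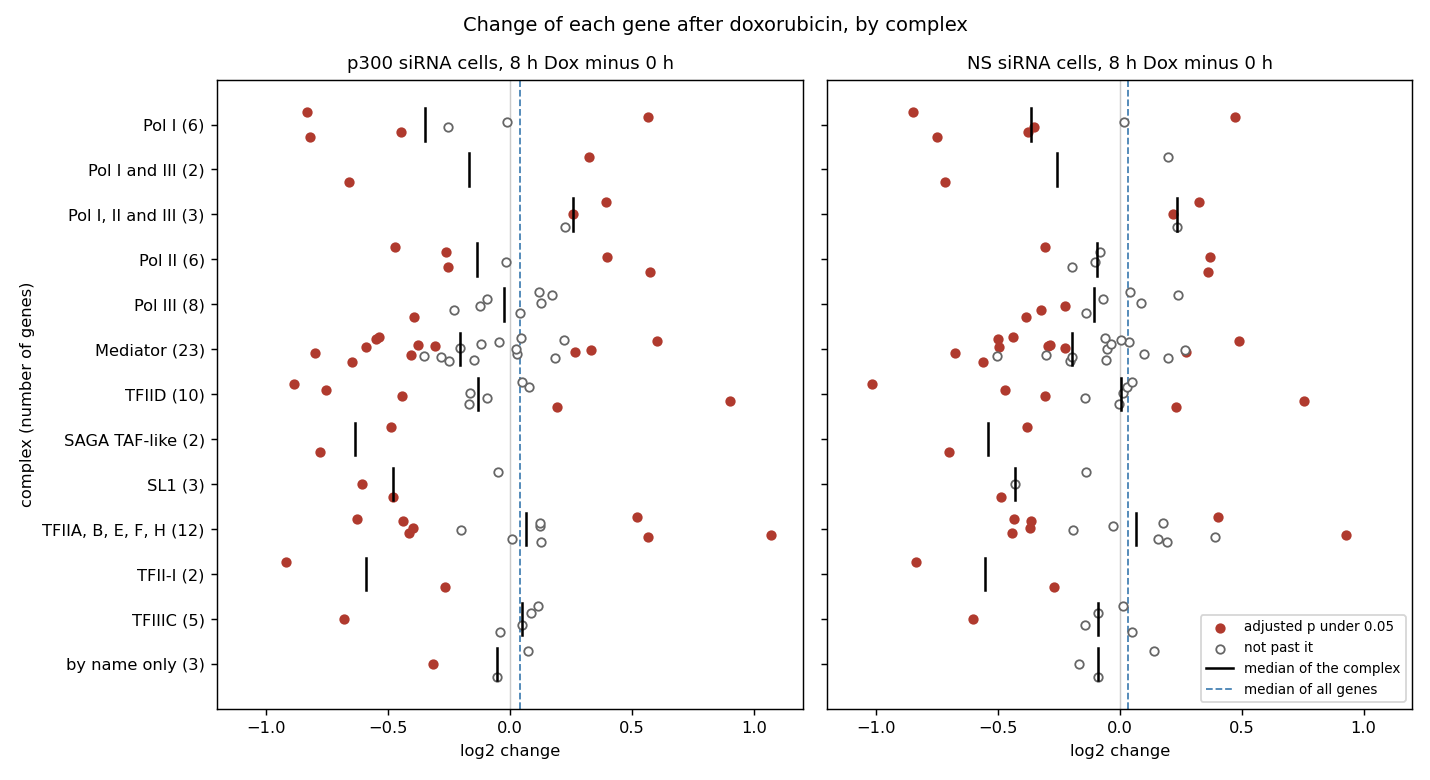
Log2 change of each of the 85 genes after 8 h of Dox (horizontal axis) by complex (vertical axis), in p300 siRNA cells on the left and NS cells on the right. Filled points passed an adjusted p under 0.05, black bars are the medians of the complexes, and the dashed line is the median of all 14506 genes. Gtf2b at 1.07 and 0.93 is the rightmost point of both panels, and Pol I subunits lie mostly to the left with Polr1g alone among them above 0.4.

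Gtf2b and Taf13 had the highest changes of the 85 in both kinds of cell, and Gtf2ird1 and Taf8 the lowest in p300 siRNA cells, while in NS cells Polr1h, at -0.85, lay between Taf8 and Gtf2ird1. Gtf2b, which encodes TFIIB, the factor that links TBP on the promoter to polymerase II and helps set the start site, had log2 intensities of 10.39, 10.47 and 10.73 in p300 siRNA cells at 8 h and of 9.18, 9.64 and 9.57 at 0 h. In NS cells they were 10.28, 10.45 and 10.28 at 8 h and 9.22, 9.57 and 9.44 at 0 h. All 6 arrays with Dox lay above all 6 without it. Gtf2b rose by 1.07 (SE 0.135, adjusted p = 8.15e-05), a 2.10-fold difference, in p300 siRNA cells and by 0.93 (SE 0.135, adjusted p = 0.000279) in NS cells.

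Taf13, a histone-fold subunit of TFIID that pairs with Taf11, read 9.80, 9.74 and 9.64 at 8 h against 9.001, 8.88 and 8.60 at 0 h in p300 siRNA cells. In NS cells it read 9.42, 9.66 and 9.30 at 8 h against 8.81, 8.57 and 8.74 at 0 h. Again no array with Dox was as low as any array without it. The rise was 0.90 (SE 0.121, adjusted p = 0.000133) and 0.75 (SE 0.121, adjusted p = 0.00058) in p300 siRNA and NS cells. Its partner Taf11 was at -0.17 (adjusted p = 0.27) and -0.0025 (adjusted p = 0.99), neither past the threshold.

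Taf8, the TFIID subunit that pairs with Taf10, was lower after Dox. It read 8.55, 8.80 and 8.63 at 8 h against 9.41, 9.50 and 9.73 at 0 h in p300 siRNA cells, and 8.63, 8.58 and 8.46 against 9.55, 9.57 and 9.61 in NS cells. The groups lay far apart for the spread within them. Taf8 fell by 0.89 (SE 0.0981, adjusted p = 3.03e-05) in p300 siRNA cells and by 1.02 (SE 0.0981, adjusted p = 1.38e-05), 2.02-fold, in NS cells. Taf10 rose slightly, by 0.19 (adjusted p = 0.0337) and 0.23 (adjusted p = 0.0147), so the changes of the partners were opposite in sign. The call of Taf10 was lost, with an adjusted p of up to 0.13, without any 1 of 5 arrays in p300 siRNA cells (all but 0 h replicate 3) and, at 0.0678, without NS 8 h replicate 3 in NS cells.

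Gtf2ird1, of the TFII-I family of DNA-binding factors, read 8.57, 8.60 and 8.54 at 8 h against 9.43, 9.45 and 9.59 at 0 h in p300 siRNA cells. In NS cells it read 8.65, 8.63 and 8.70 against 9.46, 9.52 and 9.51. It had the smallest adjusted p of the 85 in both: a fall of 0.92 (SE 0.0725, adjusted p = 2.5e-06) and of 0.83 (SE 0.0725, adjusted p = 6.29e-06). Gtf2i itself, its neighbour in the family, fell by 0.27 in each (adjusted p = 0.0134 in p300 siRNA cells and 0.0143 in NS cells). That call was lost without p300 siRNA 0 h replicate 3 (adjusted p = 0.0603) or NS 0 h replicate 3 (0.0655), and with the arrays centred on their median over the gene table.

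The 250 bases before the RefSeq start of these 4 genes (assembly GRCr8, written 5′ to 3′ on the strand of the gene) are shown because these are the highest and lowest changes in p300 siRNA cells. Capitals mark matches, on either strand, to the motifs searched: the TATA box as TATAAA, the site of ETS factors as CCGGAA, that of the SP family as GGGCGG, and the NFY box as CCAAT. The cores of other factors were searched too, that of NRF1 written as GCATGCG, the core for YY1 written as AAGATGG, and the one for CREB written as TGACGT.
Gtf2b, chr2:234427484-234427733, + strand: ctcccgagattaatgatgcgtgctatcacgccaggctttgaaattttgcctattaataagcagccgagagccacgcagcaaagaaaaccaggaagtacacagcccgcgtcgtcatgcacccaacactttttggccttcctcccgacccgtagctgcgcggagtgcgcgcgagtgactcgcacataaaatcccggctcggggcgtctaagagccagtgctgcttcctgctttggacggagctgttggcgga
Taf13, chr2:198893082-198893331, + strand: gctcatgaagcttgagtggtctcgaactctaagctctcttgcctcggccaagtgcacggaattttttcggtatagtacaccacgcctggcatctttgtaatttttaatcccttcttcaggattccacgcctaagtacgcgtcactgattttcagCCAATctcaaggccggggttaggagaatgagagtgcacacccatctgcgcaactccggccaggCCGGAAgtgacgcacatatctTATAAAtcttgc
Gtf2ird1, chr12:27890496-27890745, + strand: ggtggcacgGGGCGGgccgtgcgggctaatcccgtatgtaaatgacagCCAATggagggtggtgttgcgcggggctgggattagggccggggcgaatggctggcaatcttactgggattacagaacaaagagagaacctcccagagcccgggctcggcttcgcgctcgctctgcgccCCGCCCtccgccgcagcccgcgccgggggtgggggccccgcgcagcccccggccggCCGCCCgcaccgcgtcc
Taf8, chr9:20989349-20989598, + strand: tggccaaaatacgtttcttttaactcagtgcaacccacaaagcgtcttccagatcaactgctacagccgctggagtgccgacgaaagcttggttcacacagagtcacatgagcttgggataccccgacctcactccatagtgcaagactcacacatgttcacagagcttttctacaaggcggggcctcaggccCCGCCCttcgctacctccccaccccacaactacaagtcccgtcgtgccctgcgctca

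Counted back from -1 at the base before the start, the Taf13 stretch holds CCAAT at -96, CCGGAA at -33 and TATAAA at -12, that of Gtf2ird1 holds an SP match at -241, -73 and -17 and CCAAT at -202, and that of Taf8 holds an SP match at -57. The Gtf2b stretch holds none of the 7. A single RefSeq window of 300 bases (250 before and 50 after the start) was at hand for 71 members. CCGGAA lay in 40.8% of them, against 21% of the 11503 array genes with 1 window and 16.2% of all 24206 genes with 1 window. GGGCGG lay in 70.4% against 49.9% and 35.9%, AAGATGG in 14.1% against 7.62% and 7.38%, TGACGT in 15.5% against 9.56% and 8.32%, and GCATGCG in 7.04% against 4.74% and 3.64%. CCAAT was at 39.4% against 38.3% and 37.8%, and TATAAA at 8.45% against 11.9% and 14.3%. Among members that rose in p300 siRNA cells (13 with a window) CCGGAA lay in 53.8% and GGGCGG in 92.3%, and among those that fell there (25 with a window) in 36% and 64%. These letter matches are a description of the windows, whose median GC content was 58.3% in members, 58% in array genes and 52.7% in all genes. The median ratio of observed to expected CpG dinucleotides was 0.823 in members, 0.657 in array genes and 0.432 in all genes. The sets were thus not alike in this ratio, and its part in the motif shares was not tested.

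**Figure D2:**
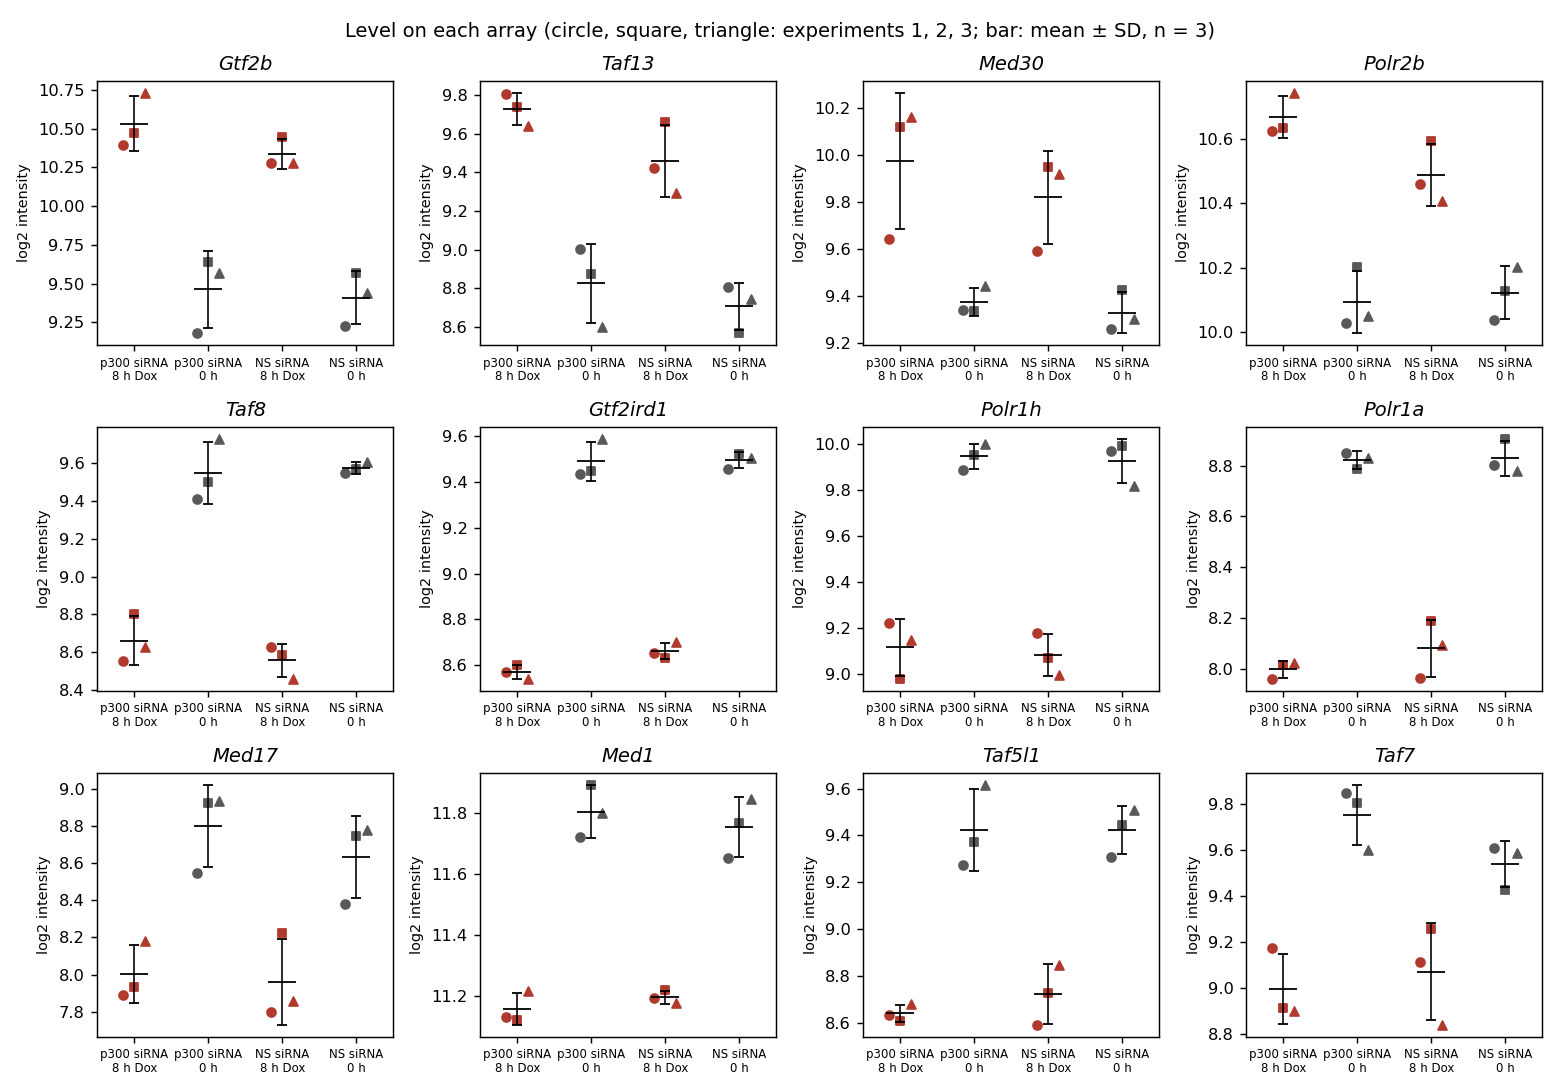
Log2 intensity (vertical axes, each panel on its own scale and not from 0) of 12 members on the 12 arrays by group (horizontal axes), with circles, squares and triangles for experiments 1, 2 and 3 and bars for the mean ± SD of 3. The Gtf2b arrays with Dox sit between 10.28 and 10.73, all above the arrays without it at 9.18 to 9.64, and Taf8 shows the opposite order.

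Of the 3 polymerases, polymerase I had the lowest median change over its own subunits after Dox. It was -0.35 in p300 siRNA cells and -0.36 in NS cells (-0.39 and -0.40 relative to all genes, -0.25 and -0.26 under the other scaling). In p300 siRNA cells 3 of the 6 fell and 1 rose, where 17.5% and 13.9% of all genes did. In NS cells 4 fell and 1 rose, against 16.4% and 11.1% of all genes. The same shares are the background for the other groups of members below. Polr1a, the largest catalytic subunit, read 7.96, 8.02 and 8.02 at 8 h against 8.85, 8.78 and 8.83 at 0 h in p300 siRNA cells, and 7.96, 8.19 and 8.10 against 8.80, 8.91 and 8.78 in NS cells. No array with Dox reached the level of any array without it. It fell by 0.82 (SE 0.0765, adjusted p = 8.54e-06) and by 0.75 (SE 0.0765, adjusted p = 2.03e-05).

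Polr1h, the zinc-ribbon subunit that serves RNA cleavage in polymerase I, read 9.22, 8.98 and 9.15 at 8 h against 9.89, 9.95 and 9.997 at 0 h in p300 siRNA cells. In NS cells it read 9.17, 9.07 and 8.99 against 9.97, 9.99 and 9.82. The falls of 0.83 (SE 0.0897, adjusted p = 2.48e-05) and 0.85 (SE 0.0897, adjusted p = 2.63e-05) were of like size. Polr1b, the other large catalytic subunit, fell by 0.45 (adjusted p = 0.0019) and 0.38 (adjusted p = 0.00647).

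Polr1g and Polr1e encode the partners of a heterodimer on polymerase I and moved apart. Polr1g read 9.11, 9.09 and 8.99 at 8 h against 8.48, 8.51 and 8.49 at 0 h in p300 siRNA cells, and 9.02, 8.73 and 8.95 against 8.31, 8.55 and 8.42 in NS cells. It rose by 0.57 (SE 0.0911, adjusted p = 0.000486) and 0.47 (SE 0.0911, adjusted p = 0.00198), with the smallest step, 0.18, in NS cells of experiment 2. Polr1e fell in NS cells by 0.35 (adjusted p = 0.0143, and 0.0658 without NS 0 h replicate 2 or, also past 0.05, without NS 0 h replicate 1). In p300 siRNA cells Polr1e was at -0.25 (adjusted p = 0.0571, and 0.0131 with the experiment as a block). Polr1f, of the stalk, was at -0.01 and 0.02.

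The assembly partners Polr1c and Polr1d, which polymerases I and III share, also differed in sign. Polr1c read 9.11, 9.15 and 9.30 at 8 h against 9.73, 9.85 and 9.95 at 0 h in p300 siRNA cells, and 9.10, 9.12 and 9.16 against 9.76, 9.97 and 9.80 in NS cells. It fell by 0.66 (SE 0.09, adjusted p = 0.000149) and 0.71 (SE 0.09, adjusted p = 9.58e-05). Polr1d rose by 0.32 in cells with the p300 siRNA (adjusted p = 0.0179, and up to 0.0815 without p300 siRNA 8 h replicate 2 or 3 or 0 h replicate 2) and was at 0.20 in NS cells (adjusted p = 0.14, and 0.0267 with the block).

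Of the 3 measured subunits common to all polymerases, 2 rose in each kind of cell, where 13.9% and 11.1% of all genes did. All 3 rose with the experiment as a block, where 22.9% and 21.6% of all genes did. Not every subunit of that kind was among the members. Polr2h read 10.68, 10.55 and 10.54 at 8 h against 10.23, 10.20 and 10.16 at 0 h in p300 siRNA cells, and 10.41, 10.51 and 10.45 against 10.09, 10.17 and 10.13 in NS cells. It rose by 0.39 (SE 0.0716, adjusted p = 0.00114) and 0.33 (SE 0.0716, adjusted p = 0.00455). Polr2f rose by 0.26 (adjusted p = 0.0161) and 0.22 (adjusted p = 0.0387), a call that single arrays could end (adjusted p up to 0.0811 without p300 siRNA 8 h replicate 2 or 0 h replicate 1, and up to 0.125 without any 1 of 6 arrays for NS cells: NS 0 h replicates 1 to 3, NS 8 h replicates 2 and 3, and p300 siRNA 0 h replicate 2). Polr2e was at 0.22 (adjusted p = 0.133, and 0.00247 with the block) and 0.24 (adjusted p = 0.125, and 0.00189 with the block).

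Among the 6 measured subunits of polymerase II alone, 2 rose and 3 fell in p300 siRNA cells (13.9% and 17.5% of all genes). In NS cells 2 rose and 1 fell (11.1% and 16.4% of all genes). Polr2b, the large subunit that completes the active site, read 10.62, 10.63 and 10.74 at 8 h against 10.03, 10.20 and 10.05 at 0 h in p300 siRNA cells. In NS cells it read 10.46, 10.59 and 10.41 against 10.04, 10.13 and 10.20. It rose by 0.57 (SE 0.0843, adjusted p = 0.000258) and 0.36 (SE 0.0843, adjusted p = 0.0064), whereas the corresponding large subunits Polr1b and Polr3b fell.

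Polr2g, of the stalk, rose by 0.40 (adjusted p = 0.0226) and 0.37 (adjusted p = 0.0339). Its calls were lost, with an adjusted p up to 0.0958, without p300 siRNA 0 h replicate 1 or 8 h replicates 2 or 3, and up to 0.14 without NS replicate 1 or 3 at 0 h or NS replicate 2 or 3 at 8 h. Its stalk partner Polr2d was at -0.02 and -0.10. Polr2j fell by 0.47 (adjusted p = 0.00208) and 0.31 (adjusted p = 0.0283, and up to 0.11 without NS 0 h replicate 1 or 3 or 8 h replicate 1 or 2), and its assembly partner Polr2c fell by 0.25 in cells with the p300 siRNA (adjusted p = 0.0392, and 0.114 in NS cells, or 0.00821 with the block). Polr2i fell by 0.26 in cells with the p300 siRNA (adjusted p = 0.0132) and was at -0.08 in NS cells (adjusted p = 0.443). Without a single array the calls of Polr2c and Polr2i in p300 siRNA cells reached 0.122 (8 h replicate 1) and 0.0603 (8 h replicate 2), and that of Polr2c was also lost without p300 siRNA 8 h replicate 3, its 0 h replicate 2 or 3, or NS 0 h replicate 3.

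Of the 8 measured subunits of polymerase III alone, 1 (12.5%) fell in p300 siRNA cells, where 17.5% of all genes did. In NS cells 3 (37.5%) fell, against 16.4% of all genes, and none rose in either kind of cell. Polr3b, its other large catalytic subunit beside Polr3a, fell by 0.39 (SE 0.0983, adjusted p = 0.00861) and 0.38 (SE 0.0983, adjusted p = 0.0113, and 0.0514 without NS 0 h replicate 3). In NS cells Polr3d fell by 0.32 (adjusted p = 0.0159, and 0.073 without NS 0 h replicate 2) and Polr3e by 0.22 (adjusted p = 0.0274, and up to 0.096 without any 1 of the 6 NS arrays). In p300 siRNA cells Polr3d was at -0.23 (adjusted p = 0.0648, and 0.0134 with the block) and Polr3e at -0.12 (adjusted p = 0.189). The other 5, Polr3c, Polr3f, Polr3g, Polr3gl and Polr3k, lay between -0.10 and 0.17 in p300 siRNA cells and between -0.14 and 0.24 in NS cells. Of these, Polr3gl in NS cells passed with the block (0.24, adjusted p = 0.0269).

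**Figure D3:**
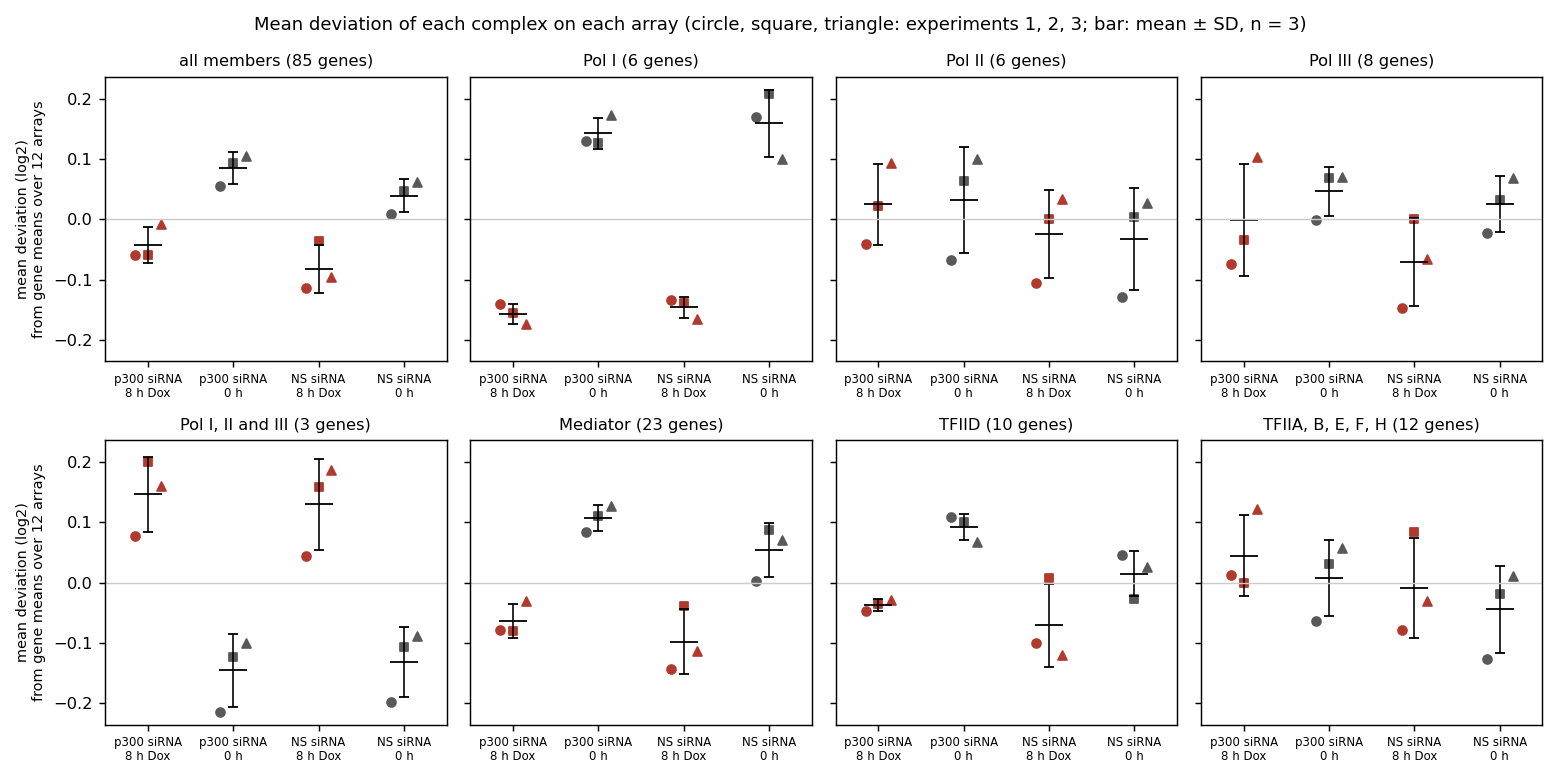
Mean deviation of the genes of 8 groups from their own mean over 12 arrays (vertical axes, log2, 1 scale) on each array by group (horizontal axes), with circles, squares and triangles for experiments 1, 2 and 3 and bars for the mean ± SD of 3, under the submitters' scaling. Pol I lies between -0.17 and -0.13 on all 6 arrays with Dox and between 0.10 and 0.21 on all 6 without it. The measured subunits shared by all polymerases lie the other way, and Pol II and Pol III overlap between times.

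Mediator had a median change of -0.21 in p300 siRNA cells and -0.19 in NS cells (-0.25 and -0.23 relative to all genes). Of its 23 measured subunits 8 (34.8%) fell and 3 (13%) rose in p300 siRNA cells, where 17.5% and 13.9% of all genes did. In NS cells 8 (34.8%) fell and 2 (8.7%) rose, against 16.4% and 11.1%. With the experiment as a block the counts were 12 and 3, and 11 and 4 (all genes 22.8% and 22.9%, and 21.9% and 21.6%). Under the scaling on the gene table they were 6 and 4, and 5 and 5 (all genes 13.7% and 30%, and 12.6% and 26.2%). In both kinds of cell 17 of the 23 lay below the median of all genes.

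In the head, which contacts polymerase II, Med17 read 7.89, 7.93 and 8.18 at 8 h against 8.55, 8.93 and 8.93 at 0 h in p300 siRNA cells, and 7.80, 8.22 and 7.86 against 8.38, 8.75 and 8.78 in NS cells. It fell by 0.80 (SE 0.149, adjusted p = 0.00136) and 0.67 (SE 0.149, adjusted p = 0.00484). Experiment 1 was the lowest of the 3 at 0 h in both kinds of cell, yet the groups did not overlap. Med8, also of the head, fell by 0.54 (adjusted p = 0.000132) and 0.44 (adjusted p = 0.000697). Med22 fell by 0.22 in NS cells (adjusted p = 0.0441, and up to 0.143 without any 1 of 10 of the 12 arrays, all but NS 8 h replicate 3 and p300 siRNA 8 h replicate 1), and was at -0.21 in p300 siRNA cells (adjusted p = 0.0544, and 0.0316 with the block).

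Med30, a head subunit found in animals and not in yeast, went the other way. It read 9.64, 10.12 and 10.16 at 8 h against 9.34, 9.34 and 9.44 at 0 h in p300 siRNA cells, and 9.59, 9.95 and 9.92 against 9.26, 9.43 and 9.30 in NS cells. It rose by 0.60 (SE 0.136, adjusted p = 0.00475) and 0.49 (SE 0.136, adjusted p = 0.0171, and up to 0.0667 without NS 0 h replicate 1 or 3 or 8 h replicate 2 or 3). The rise was smallest in experiment 1, at 0.30 and 0.33. Med20 rose by 0.33 in cells with the p300 siRNA (adjusted p = 0.0408, and up to 0.155 without any 1 of 6 arrays: p300 siRNA 8 h replicates 2 and 3, p300 siRNA 0 h replicates 1 and 3, and replicate 3 of NS at each time). In NS cells Med20 was at 0.27 (adjusted p = 0.0976, and 0.0038 with the block). Med6, Med11 and Med28 lay between -0.15 and 0.05.

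In the middle module, Med1, the subunit that nuclear receptors bind, read 11.13, 11.12 and 11.21 at 8 h against 11.72, 11.89 and 11.80 at 0 h in p300 siRNA cells. In NS cells it read 11.19, 11.22 and 11.18 against 11.65, 11.77 and 11.85. It fell by 0.65 (SE 0.0715, adjusted p = 2.94e-05) and 0.56 (SE 0.0715, adjusted p = 0.000106). Med4 fell by 0.55 (adjusted p = 0.000164) and 0.50 (adjusted p = 0.000389). Med19 rose by 0.26 (adjusted p = 0.0285) and 0.27 (adjusted p = 0.0283), calls that reached 0.111 without p300 siRNA 8 h replicate 3 and 0.113 without NS 0 h replicate 1. They were also lost without p300 siRNA 8 h replicate 2 or 0 h replicate 1 or 3, and without NS 0 h replicate 3 or 8 h replicate 2 or 3. Med10, Med21 and Med31 did not pass, and Med10 did with the block (-0.25 and -0.20, adjusted p = 0.00756 and 0.0258).

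The tail, where many activators bind, held no subunit that rose. Med23, the subunit that the growth factor responsive activator Elk1 binds, read 9.89, 9.95 and 9.84 at 8 h against 10.41, 10.52 and 10.52 at 0 h in p300 siRNA cells, and 9.86, 9.84 and 9.75 against 10.24, 10.33 and 10.36 in NS cells. It fell by 0.59 (SE 0.0751, adjusted p = 8.68e-05) and 0.49 (SE 0.0751, adjusted p = 0.000396). Med24 fell by 0.31 and 0.29 (adjusted p = 0.00897 and 0.0136, the NS value 0.0628 without NS 0 h replicate 1), and Med27 by 0.38 and 0.28 (adjusted p = 0.00839 and 0.039). The NS call of Med27 reached 0.163 without NS 0 h replicate 2 and was also lost without any of NS 8 h replicates 1 to 3 or p300 siRNA 8 h replicate 3. Med15 fell by 0.41 in cells with the p300 siRNA (adjusted p = 0.0244, and up to 0.104 without 0 h replicate 1 or 8 h replicate 2 or 3) and was at -0.30 in NS cells (adjusted p = 0.0924, and 0.00074 with the block). Med16 and Med29 lay between -0.05 and 0.10.

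Med14, the scaffold that joins the modules, was at -0.35 (adjusted p = 0.328) and -0.50 (adjusted p = 0.178), and its block gave 0.047 and 0.00793. Med13, of the kinase module that docks on Mediator reversibly, was at -0.28 (adjusted p = 0.337, and 0.0273 with the block) and -0.19 (adjusted p = 0.542). Med12l of the same module was at 0.18 and 0.20 (adjusted p = 0.163 and 0.139, the NS value 0.0486 with the block).

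Beside Taf13, Taf10 and Taf8, TFIID had 2 subunits that fell. Taf7, which binds Taf1 and restrains its activity, read 9.17, 8.91 and 8.90 at 8 h against 9.85, 9.80 and 9.60 at 0 h in p300 siRNA cells, and 9.11, 9.26 and 8.84 against 9.61, 9.42 and 9.58 in NS cells. It fell by 0.76 (SE 0.12, adjusted p = 0.000443) and 0.47 (SE 0.12, adjusted p = 0.0114, and 0.0527 without NS 8 h replicate 3). The fall in NS cells was 0.17 in experiment 2, where it was 0.89 in p300 siRNA cells. Taf5 fell by 0.44 (adjusted p = 0.000871) and 0.31 (adjusted p = 0.0102). Taf2, Taf6, Taf7l, Taf9b and Taf11 lay between -0.17 and 0.08 and did not pass, apart from Taf6 in p300 siRNA cells with the block (-0.17, adjusted p = 0.024).

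Both TAF-like subunits of SAGA fell. Taf5l1, the annotation's symbol for the gene also called Taf5l, read 8.63, 8.61 and 8.68 at 8 h against 9.28, 9.37 and 9.62 at 0 h in p300 siRNA cells, and 8.59, 8.73 and 8.85 against 9.31, 9.44 and 9.51 in NS cells. It fell by 0.78 (SE 0.102, adjusted p = 0.000107) and 0.70 (SE 0.102, adjusted p = 0.000282). RefSeq lists other copies of this gene and the array names 4 probe sets for it, which fell by between 0.57 and 0.78 in p300 siRNA cells and by between 0.43 and 0.71 in NS cells, so the copies may share signal. Taf6l fell by 0.49 (adjusted p = 0.000663) and 0.38 (adjusted p = 0.00421).

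Of the TAFs of SL1, Taf1a fell by 0.48 in both (adjusted p = 0.0109 in p300 siRNA cells and 0.0118 in NS cells, the NS value 0.0529 without NS 0 h replicate 1). Taf1c fell by 0.61 in cells with the p300 siRNA (adjusted p = 0.0094) and was at -0.43 in NS cells (adjusted p = 0.0551, and 0.000177 with the block). Taf1d was at -0.05 and -0.14. Polr1a, Polr1b, Polr1h and Polr1c, which fell in both, are genes of the ribosomal RNA machinery as well. Others of it rose, Polr1g, Polr2h and Polr2f in both kinds of cell and Polr1d in p300 siRNA cells. Polr1e fell in NS cells, and Polr1f passed in neither. Ubtf, the promoter factor that works with SL1, was at -0.0029 (adjusted p = 0.981) and -0.08 (adjusted p = 0.493).

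The TFIIA to TFIIH genes split both ways, with a median change of 0.06 in p300 siRNA cells and 0.07 in NS cells. In p300 siRNA cells 4 of the 12 fell and 3 rose, where 17.5% and 13.9% of all genes did. In NS cells 4 fell and 2 rose, against 16.4% and 11.1% of all genes. With the experiment as a block the NS counts were 4 and 4, against 21.9% and 21.6%. With arrays centred on the gene table there were 4 falls and 3 rises in p300 siRNA cells, where 13.7% of all genes fell and 30% rose. In NS cells 3 fell and 6 rose, where 12.6% of all genes fell and 26.2% rose. Gtf2a1, Gtf2a1l, Gtf2a2 and Gtf2h1 were gained there as rises and Gtf2h3 was lost as a fall. Gtf2a2, the small subunit of TFIIA, read 10.69, 10.88 and 10.97 at 8 h against 10.12, 10.22 and 10.50 at 0 h in p300 siRNA cells, and 10.44, 10.66 and 10.95 against 10.003, 10.30 and 10.56 in NS cells. Experiment 1 was the lowest and experiment 3 the highest in all 4 groups, and the NS groups overlapped. It rose by 0.57 in p300 siRNA cells (SE 0.16, adjusted p = 0.0167, and up to 0.0658 without 0 h replicate 1 or 2 or 8 h replicate 2 or 3), and was at 0.39 in NS cells (SE 0.16, adjusted p = 0.0903, and 0.000193 with the block). A dimmer probe set of Gtf2a2 was at -0.48 and -0.35 (adjusted p = 0.437 and 0.615). Gtf2a1 and Gtf2a1l lay between 0.01 and 0.19 and did not pass, and Gtf2a1 in NS cells did with the block (adjusted p = 0.0493).

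In TFIIH, which unwinds the promoter and also serves nucleotide excision repair, Gtf2h5, the smallest core subunit, rose while Gtf2h3 and Gtf2h4 fell. Gtf2h5 read 11.69, 12.02 and 12.15 at 8 h against 11.29, 11.39 and 11.62 at 0 h in p300 siRNA cells, and 11.58, 11.80 and 11.88 against 11.24, 11.38 and 11.43 in NS cells. It rose by 0.52 (SE 0.123, adjusted p = 0.00627) and 0.40 (SE 0.123, adjusted p = 0.0272, and up to 0.101 without NS 0 h replicate 1 or 2 or 8 h replicate 2 or 3). Gtf2h4 fell by 0.63 (adjusted p = 0.000149) and 0.43 (adjusted p = 0.00246), and Gtf2h3 by 0.44 (adjusted p = 0.00505) and 0.36 (adjusted p = 0.0168, and up to 0.0674 without NS 0 h replicate 2 or 3 or 8 h replicate 1). Gtf2h1 was at 0.12 and 0.18 (adjusted p = 0.362 and 0.198).

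TFIIE and TFIIF each had 1 subunit that fell. Gtf2e1, the large subunit of TFIIE, fell by 0.42 (adjusted p = 0.00262) and 0.44 (adjusted p = 0.00215), and Gtf2f1, that of TFIIF, by 0.40 (adjusted p = 0.00244) and 0.37 (adjusted p = 0.00455). Their partners were at -0.20 and -0.19 (Gtf2e2) and at 0.12 and -0.03 (Gtf2f2), none past the threshold.

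In TFIIIC only Gtf3c4 was called. It read 8.44, 7.94 and 7.92 at 8 h against 8.94, 8.83 and 8.57 at 0 h in p300 siRNA cells, and 8.38, 8.24 and 7.85 against 8.92, 8.60 and 8.76 in NS cells. It fell by 0.68 (SE 0.165, adjusted p = 0.00705) and 0.60 (SE 0.165, adjusted p = 0.0165, and up to 0.0741 without NS 8 h replicate 3 or 0 h replicate 1). Gtf3c1, the largest subunit, was at -0.04 and 0.05, and Gtf3c3, Gtf3c5 and Gtf3c6 lay between -0.14 and 0.11. Of the 3 genes that belong by name alone, Polr2m, whose product binds polymerase II, fell by 0.31 in cells with the p300 siRNA (adjusted p = 0.0281, and up to 0.108 without 8 h replicate 1 or 0 h replicate 2 or 3). In NS cells Polr2m was at -0.17 (adjusted p = 0.238, and 0.0176 with the block). Taf15, of an RNA-binding protein family, was at 0.07 and 0.14, and Polr1has at -0.05 and -0.09.

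The drug response was then set side by side with and without the p300 siRNA. Of the 45 members called in p300 siRNA cells and the 41 called in NS cells, 11 rose in both and 26 fell in both, which is 82.2% of the first set and 90.2% of the other (74.8% and 85.4% over all genes), and 0 were called in opposite directions. The 2 comparisons share no arrays but share the 3 experiments, and Pearson's r between their log2 changes was 0.97 over the 85 genes and 0.95 over all 14506, across genes, which are not independent. The size of the change, whatever its sign, was larger in p300 siRNA cells for 53 of the 85, as it was for 8260 of the 14506 genes. The difference between the responses lay between -0.29 (Taf7) and 0.22 (Med31), within 0.1 either way for 56 members and within 0.2 for 82. No member passed the test of that difference (limma interaction, smallest adjusted p = 0.9998, 0 of 85 with an unadjusted p under 0.05), nor did any of the 14506 genes. The smallest unadjusted p values of the interaction belonged to Taf6 (-0.18, SE 0.0951), Polr2i (-0.18, SE 0.101), Polr2b (0.21, SE 0.119), Taf7 (-0.29, SE 0.169) and Gtf2h4 (-0.20, SE 0.122). With 3 arrays a group, differences of this size could not be told from 0.

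**Figure D4:**
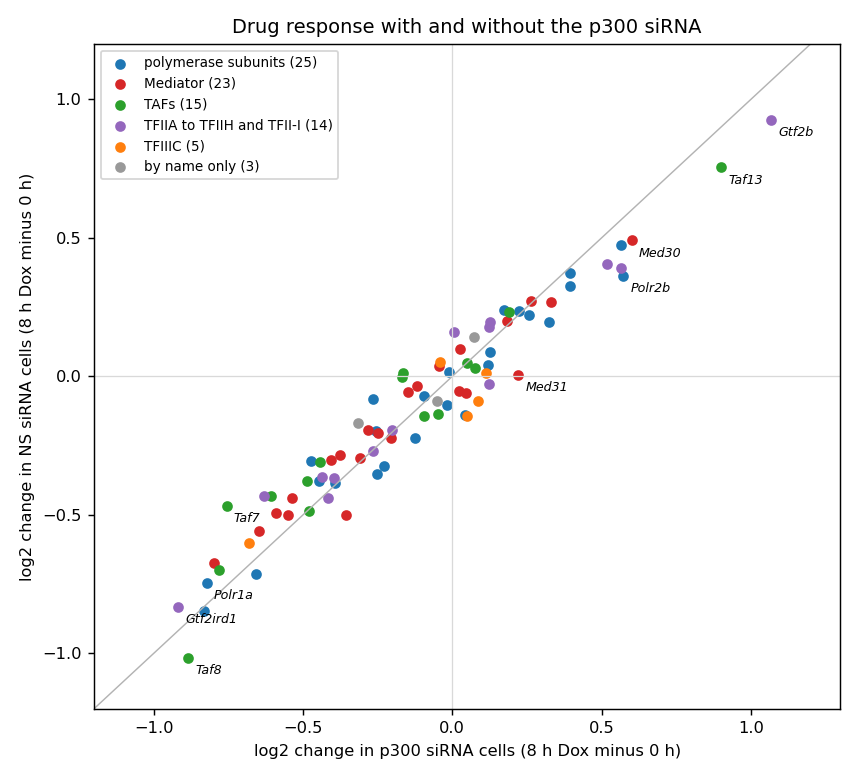
Log2 change after 8 h of Dox in p300 siRNA cells (horizontal axis) against that in NS cells (vertical axis) for the 85 genes, coloured by complex, with the line of equal change in grey. The points follow the line from Taf8 at -0.89 and -1.02 to Gtf2b at 1.07 and 0.93, and Taf7 and Med31 lie farthest from it.

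The p300 siRNA by itself changed no member past the threshold. At 0 h the median difference, p300 siRNA minus NS, was 0.05 over the members, where all genes had 0.00, and 63 of 85 lay above 0, against 7486 of 14506 genes. At 8 h the median was 0.04, where all genes had 0.01, and 53 of 85 lay above 0, against 7554 of 14506 genes. Averaged over both times it was 0.05, where all genes had 0.01, and 58 of 85 lay above 0, against 7631 of 14506 genes. With limma, 0 of 85 members passed in each of these comparisons, against 0.0207% of all genes at 0 h, 0.0483% at 8 h and 1.25% in the mean over the times. At an unadjusted p under 0.05 there were 3, 2 and 9 members, and 1008, 1155 and 1845 of the 14506 genes.

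The 5 members with the smallest p at 0 h were Gtf2h4 (0.27, SE 0.0859, adjusted p = 0.434), Polr3d (-0.21), Med23 (0.17), Med12l (0.18) and Taf15 (0.14). Gtf2h4 read 8.63, 8.70 and 8.72 with the p300 siRNA against 8.38, 8.45 and 8.42 with NS at 0 h, groups that did not overlap. At 8 h the 5 were Gtf3c3 (0.26, SE 0.102, adjusted p = 0.509), Taf13 (0.27), Polr2b (0.18), Gtf3c5 (0.18) and Polr3f (0.21). Averaged over both times they were Gtf2h4 (0.17, SE 0.0608, adjusted p = 0.244), Polr3d (-0.16), Polr3f (0.19), Med12l (0.17) and Med23 (0.12).

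With the experiment as a block, 3 members passed in the average over both times, where 9.51% of all genes did. Med20 was higher with the p300 siRNA by 0.18 (adjusted p = 0.0255 with the block and 0.372 without it) and Gtf2h5 by 0.14 (0.0396 and 0.57). Polr3d was lower, at -0.16 (0.0483 and 0.271). Polr3d read 9.38, 9.47 and 9.45 with the p300 siRNA against 9.49, 9.56 and 9.60 with NS at 8 h, and 9.56, 9.64 and 9.77 against 9.75, 10.01 and 9.85 at 0 h, lower in each of the 6 pairs.

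Other genes of the transcription machinery, 84 that the naming rule does not reach, were counted from fixed lists. After Dox 33 (39.3%) fell and 10 (11.9%) rose in p300 siRNA cells, where 17.5% and 13.9% of all genes did. In NS cells 35 (41.7%) fell and 8 (9.52%) rose, against 16.4% and 11.1% of all genes. These shares of all genes are the background for the single lists too. For counts with the experiment as a block the background is 22.8% lower and 22.9% higher in p300 siRNA cells. In NS cells it is 21.9% and 21.6%. Of 5 genes of the TBP family and its repressors, 2 rose and 1 fell in p300 siRNA cells and 1 rose and 1 fell in NS cells. Tbp, the TATA-binding protein itself, fell by 0.62 (adjusted p = 0.00127) and 0.52 (adjusted p = 0.00493). Drap1, of a complex that represses TBP, rose by 0.32 (adjusted p = 0.00166) and 0.31 (adjusted p = 0.00231), and its partner Dr1 was at -0.05 and -0.20, not past the threshold. Of the 3 genes that complete the Mediator kinase module, Ccnc (cyclin C) rose by 0.49 (adjusted p = 0.00105) and 0.45 (adjusted p = 0.00212), Cdk19 rose by 0.30 in cells with the p300 siRNA (adjusted p = 0.0175) and was at 0.17 in NS cells (adjusted p = 0.163), and Cdk8 was at -0.03 and -0.06. Of 4 further TFIIH genes, Mnat1 fell by 0.31 (adjusted p = 0.0194) and 0.37 (adjusted p = 0.0075) and the others did not pass. With the experiment as a block 3 of the 4 fell in p300 siRNA cells and 2 in NS cells, since Cdk7 (-0.32 and -0.28, adjusted p = 0.0181 and 0.0357 with the block, 0.0542 and 0.0922 without it) and, in p300 siRNA cells, Ercc3 (-0.15, 0.0313 and 0.192) passed as well.

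Of 8 genes listed with TFIIIB and SNAPc, 4 fell in p300 siRNA cells and 5 in NS cells and none rose. With the experiment as a block 7 and 6 fell, where 22.8% and 21.9% of all genes did. These complexes serve polymerase III and the small nuclear RNA genes, but the list also holds Maf1, a repressor of polymerase III. Maf1 passed only with the block (-0.27 and -0.21, adjusted p = 0.00369 and 0.0203, against 0.0883 and 0.199 without it). Snapc3 fell by 0.72 (adjusted p = 0.000593) and 0.70 (adjusted p = 0.000855). Of 13 genes listed with P-TEFb and the super elongation complex, 8 fell and 1 rose in each kind of cell. These complexes release paused polymerase II, but the list also holds Hexim1, Larp7 and Mepce, which restrain P-TEFb. Mepce was among the falls (-0.69 and -0.60), and Larp7 passed only with the block (-0.18 and -0.22, adjusted p = 0.035 and 0.0156). The rise was Hexim1 in p300 siRNA cells (0.36, adjusted p = 0.0293) and Ell3 in NS cells (0.23, adjusted p = 0.0302). Mllt3 fell by 1.07 (adjusted p = 0.000187) and 0.89 (adjusted p = 0.000847) and Mllt1 by 1.01 (adjusted p = 7.37e-06) and 0.76 (adjusted p = 6.75e-05), while Cdk9, the kinase of P-TEFb, fell by 0.31 (adjusted p = 0.0124) and 0.32 (adjusted p = 0.0126).

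Of 22 pausing and elongation genes, 5 (22.7%) fell and 4 (18.2%) rose in p300 siRNA cells, where 17.5% and 13.9% of all genes did. In NS cells 6 (27.3%) fell and 4 (18.2%) rose, against 16.4% and 11.1% of all genes. Nelfa, of the pausing factor NELF, fell by 1.16 (adjusted p = 6.54e-06) and 0.91 (adjusted p = 4.65e-05), and Eloc, of elongin, rose by 0.55 (adjusted p = 0.000347) and 0.32 (adjusted p = 0.0134). Of 9 genes for phosphatases of the polymerase II tail and for its assembly, 4 fell and none rose, with Ctdsp1 at -0.93 (adjusted p = 7.37e-06) and -0.50 (adjusted p = 0.000827). Of 10 further SAGA and ATAC genes 6 fell and 1 rose. The fall of Kat2a, the acetyltransferase of SAGA, was 0.73 (adjusted p = 3.67e-05) and 0.66 (adjusted p = 9.44e-05), and its paralog Kat2b rose by 0.61 (adjusted p = 0.00761) and 0.51 (adjusted p = 0.0234). Of 9 mitochondrial transcription genes 4 fell, among them Tfb1m (-0.60 and -0.48), while Polrmt, the mitochondrial polymerase, was at -0.21 and -0.20 (adjusted p = 0.0948 and 0.113, the first 0.0431 with the block).

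As a last feature that the naming rule did not use, the span of the genes is given with no test. The median span in RefSeq was 11.2 kb for the 14 that rose, 17.9 kb for the 31 that fell and 15.9 kb for the other 40 in p300 siRNA cells, and 10.5, 18.5 and 14.3 kb in NS cells. Over all genes the medians were 16.6, 24.7 and 16.5 kb, and 16.1, 25.5 and 16.5 kb. Spearman's rho between span and log2 change was -0.10 and -0.15 over the members and -0.11 and -0.12 over all genes, as a description across genes of the same arrays.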

How the data were processed

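The deposited values are intensity values, 1 per probe set and array, on a linear scale. Per the submitters' processing notes they were made with Affymetrix Expression Console 1.1 and RMA. Here log2 was taken. Probe sets with exactly 1 symbol in the platform annotation (15310 of 29214) were kept, the brightest per gene over 12 arrays, which gave 14506 genes with no filter on level. The members and all lists were chosen with earlier results of these data known.

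A model of 4 group means was fitted to all genes with limma 3.58.1 in R 4.3.3 (eBayes with trend, 8 residual degrees of freedom, two-sided), with Benjamini-Hochberg adjustment within each of 6 comparisons and a call at 0.05. The code was run on simulated data with independent arrays and no experiment effect, so that run cannot show how the experiments bear on the calls. Fold changes are Dox over 0 h and p300 siRNA over NS. Figures used Python 3.11.15 and matplotlib 3.10.9.

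The design text states 3 experiments. The 18 same-numbered pairs of arrays across groups had deviations correlated at a median r of 0.504 (0.172 to 0.689), other pairs at -0.271, and each of the 12 arrays had its highest correlation within its own number, so the number is called the experiment. The model without it is the main one, and the block value is given where it changes the call of a gene named in the text or moves the calls of a list of the transcription machinery by over 1.5 times. Calls lost without a single array are those of the main model, which leaves the spread between experiments in its error. Every member called after Dox in the main model also passed with the block. Whether cultures of 1 experiment came from separate animals is not stated.

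Named for each drug comparison were up to 10 rises and 10 falls whose groups did not overlap, 17 subunits in any case, and for the other comparisons the 5 smallest p. The rest are named to account for all members, after their values were seen. The lists were TBP family, TFIIH, Mediator kinases, TFIIIB and SNAPc, polymerase I factors, P-TEFb and super elongation, pausing and elongation, CTD phosphatases and assembly, SAGA and ATAC, mitochondrial transcription, and markers of 6 cell types. Promoter windows came from RefSeq (GRCr8), for 71 members as a single window.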

Additional observations from a re-analysis of the deposited data

Results flagged for a closer look

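Some probe sets outside the gene table carried a drug response. A probe set shared by the symbols Ak6 and Taf9, left out because it names more than 1 gene, was higher after Dox in p300 siRNA cells by 0.368 on the log2 scale (9.64 at 8 h against 9.27 at 0 h, limma adjusted p = 0.00558), and was at 0.15 in NS cells (9.47 against 9.32, adjusted p = 0.224). The dimmer probe set of Taf15 was higher in p300 siRNA cells by 0.26 (7.70 at 8 h against 7.44 at 0 h, adjusted p = 0.0346) and at 0.00 in NS cells (adjusted p = 0.994), while the probe set used for Taf15 was at 0.07 and 0.14. Both were noted because they lie outside the main measurement and passed the test there. A probe set shared by Mpv17 and Gtf3c2 was lower by 0.26 in p300 siRNA cells and by 0.23 in NS cells (adjusted p = 0.0109 and 0.0237). Whether the difference between the siRNAs is larger than its error was not tested for these probe sets.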

How the results depend on the processing

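Under 22 alternatives no named gene that was called changed sign, but the balance of calls turned in NS cells with the scaling on the gene table, to 22 rises and 21 falls of the 85, where the main analysis gave 11 and 30, and to 6 and 3 among the TFIIA to TFIIH genes, where it gave 2 and 4. Over all genes 26.2% rose and 12.6% fell under that scaling, against 11.1% and 16.4% in the main analysis. The members' median relative to all genes was -0.14 in NS cells under both. The calls after Dox came to between 25 and 46 of 85 when arrays or whole experiments were left out in p300 siRNA cells (45 in the main analysis) and to between 17 and 43 in NS cells (41), with the lowest counts without experiment 2 or 3. The rises and falls of all genes were also fewest without either of those experiments. In the average over both times the p300 siRNA gave 0 calls in every alternative but the replicate block, which gave 3. The other comparisons of the siRNA and the interaction gave 0 throughout. The replicate block gave 53 and 54 calls after Dox. Of the 45 and 41 members called, 22 and 12 kept the call in every alternative run for them, in both kinds of cell Gtf2b, Gtf2ird1, Med1, Med4, Med8, Med23, Polr1a, Polr1c, Polr1h, Taf13, Taf5l1 and Taf8. Of these, Med4 and Polr1a in both, and Gtf2h4, Med17 and Taf5 in p300 siRNA cells, were not tested where dim genes were left out. Centring the arrays over all probe sets gave 41 and 37 calls, only the groups compared 38 and 36, no trend 48 and 40, the mean of the probe sets 44 and 41, and leaving out dim genes 39 and 33 of the 66 members that remained; the average and the interaction could not be fitted with only the groups compared. The scaling on the gene table was added after the data were seen.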
